A study of Homo sapiens with 27 samples.

Results

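ADAMTS1, ADAMTS2, ADAMTS5, ADAMTS6, ADAMTS12 and ADAMTS19 encode secreted matrix-cutting enzymes, and they were followed here as 6 of the 60534 gene IDs counted in every library of a study of IMR90 cells. IMR90 is an untransformed fibroblast line derived from fetal human lung. The 6 genes were picked by symbol, and ADAMTS19 was picked for its rise in senescent against quiescent cells. Its mRNA level in those states against cycling cells, and its rise over quiescent cells, are thus described with no test. Tests of its ribosome footprints against cycling cells are given but lend it no separate support. Matched RNA-seq and ribosome profiling (Ribo-seq, which sequences the mRNA fragments shielded by ribosomes) covered 5 states of these cells. Cycling cells, taken at partial confluence, had 2 RNA-seq and 3 Ribo-seq libraries. Quiescent cells were held by contact inhibition, with 3 libraries of each kind. Irradiated senescent cells received 15 Gy of ionizing radiation and were taken after 10 days, with 3 libraries of each kind. Etoposide senescent cells received this topoisomerase II poison at 50 µM in 3 treatments over 10 days, also with 3 libraries of each kind. Thapsigargin, which drains the calcium store of the endoplasmic reticulum, was given to cycling cells at 25 nM for 3 h, with 2 libraries of each kind. All cells were of this one line, labelled wild type except that the thapsigargin libraries carry no genotype label, and all were lysed with cycloheximide. Nothing in the labels says that replicates came from separate cultures, so p-values measure only the spread between these libraries, which may be technical.

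ADAMTS proteins are secreted zinc metalloproteinases whose thrombospondin motifs anchor them in the extracellular matrix. They are made as inactive precursors, trimmed by furin-like convertases on the way out of the cell, and need O-fucosylation of their thrombospondin repeats for secretion. Fibroblasts use them to cut proteoglycans, to remove the propeptides of fibrillar collagens and to shape microfibrils, and TIMP3, A2M and uptake by LRP1 hold them back.

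ADAMTS19 (ENSG00000145808) lies at chr5:129460298-129738683 in RefSeq GRCh38.p14, and ADAMTS19-AS1, a long noncoding RNA read from the opposite strand, spans chr5:129459559-129460689 and shares 392 bases with it. ADAMTS6 (ENSG00000049192, chr5:65148738-65481920), ADAMTS2 (ENSG00000087116, chr5:179110853-179345461) and ADAMTS12 (ENSG00000151388, chr5:33523535-33891990) are on the same chromosome. ADAMTS1 (ENSG00000154734, chr21:26835755-26845409) and ADAMTS5 (ENSG00000154736, chr21:26917922-26967088) are neighbours with 72512 bases between them. Of the 6 genes, 4 matched the RefSeq promoter table (GRCh38.p14). Shown are the 250 bases before the start and the first transcribed base for ADAMTS19, which rose most of the 6 in senescent cells, and ADAMTS6, which fell in both senescent states. The ADAMTS19 window is chr5:129460048-129460298 on the plus strand, and all of it lies inside ADAMTS19-AS1. The ADAMTS6 window is chr5:65481920-65482170 on the minus strand.
ADAMTS19: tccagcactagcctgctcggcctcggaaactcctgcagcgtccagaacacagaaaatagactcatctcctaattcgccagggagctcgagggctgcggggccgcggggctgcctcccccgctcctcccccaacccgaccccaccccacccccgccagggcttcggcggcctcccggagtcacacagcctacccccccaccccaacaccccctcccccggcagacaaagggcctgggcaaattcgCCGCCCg
ADAMTS6: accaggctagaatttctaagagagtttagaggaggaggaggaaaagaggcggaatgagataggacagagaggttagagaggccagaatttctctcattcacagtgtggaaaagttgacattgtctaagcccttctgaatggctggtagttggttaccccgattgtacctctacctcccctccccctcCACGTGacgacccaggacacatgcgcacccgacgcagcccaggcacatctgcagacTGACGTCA
Capitals mark the searched motifs. The motifs were searched on both strands, in windows of 300 bases from 250 before to 50 after the start. In ADAMTS6, TGACGTCA, the cyclic AMP response element, began 7 bases before the start and CACGTG, an E-box, 63 bases before it. TGACGTCA is present in 1.98% and CACGTG in 7.43% of the 27305 promoter windows in the table. In ADAMTS19, GGGCGG, the core of a GC box, was found on the opposite strand as CCGCCC, 6 bases before the start, and 44.6% of promoters hold that motif. ADAMTS12 held TGAATCA, a match to the AP-1 motif TGANTCA (7.76% of promoters), 84 bases before the start and GGGCGG 198 bases before it, and ADAMTS2 held 6 matches to GGGCGG, some of them touching. The TATA box letters TATAAA (12% of promoters) were in none of the 4 windows. CCAAT, the last motif searched (35.7%), was in none of them either.

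Gene counts summed, in units of 1e6, to 20.6 to 41.2 per RNA-seq library and 2.65 to 20 per Ribo-seq library outside thapsigargin. Thapsigargin libraries held 40.8 to 57 in RNA-seq but 1.93 to 2.04 in Ribo-seq in the same units, so footprint levels there are the least precise. Unmapped reads were 1.35 to 1.4% of the thapsigargin RNA-seq reads and 27.8 to 40.6% of the other RNA-seq reads. The thapsigargin footprints were counted on a list of 62703 genes and the other 12 Ribo-seq libraries on one of 60664, and only the other states' medium is described with antibiotics. These differences and the drug cannot be told apart. All 10 fibroblast markers averaged at least 1 CPM (counts per 1e6 after TMM scaling) in RNA-seq in every state. Their summed CPM in Ribo-seq was 35800 to 37500 in cycling, 17500 to 37300 in quiescent, 22500 to 24800 in irradiated, 29900 to 32100 in etoposide and 12500 to 13000 in thapsigargin cells, and its part in the lower ADAMTS footprints was not tested. Quiescent Ribo-seq replicate 1 was lowest for each of the 6 ADAMTS genes among its 3 replicates. CDKN1A, the cell cycle inhibitor p21, averaged 799 CPM in cycling RNA, 1070 in quiescent, 2580 in irradiated and 3070 in etoposide RNA. LMNB1, lamin B1, averaged 76.2, 35.2, 6.55 and 4.3 CPM in that order. MKI67, a proliferation marker, averaged 155, 81, 14.6 and 6.43 CPM. Its quiescent RNA libraries, at 41.3 to 148 CPM, overlapped the cycling ones (144 to 167 CPM) and were not called, though its quiescent footprints were called lower. DDIT3, the stress factor CHOP, averaged 40.6 CPM in cycling, 69.4 in quiescent, 95.4 in irradiated, 71.3 in etoposide and 439 CPM in thapsigargin RNA.

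ADAMTS19 and ADAMTS5 stood far higher in senescent cells, and both were highest after etoposide. ADAMTS1 rose after etoposide but was not called after irradiation. ADAMTS6 fell in both senescent states, ADAMTS2 was lower in both at the mRNA level, and ADAMTS12 differed between the senescent states without being called in either against cycling cells. A gene is called where its adjusted p is under 0.05. As these are bulk samples, fewer cells making a gene and less RNA per cell cannot be told apart.

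**Figure D1:**
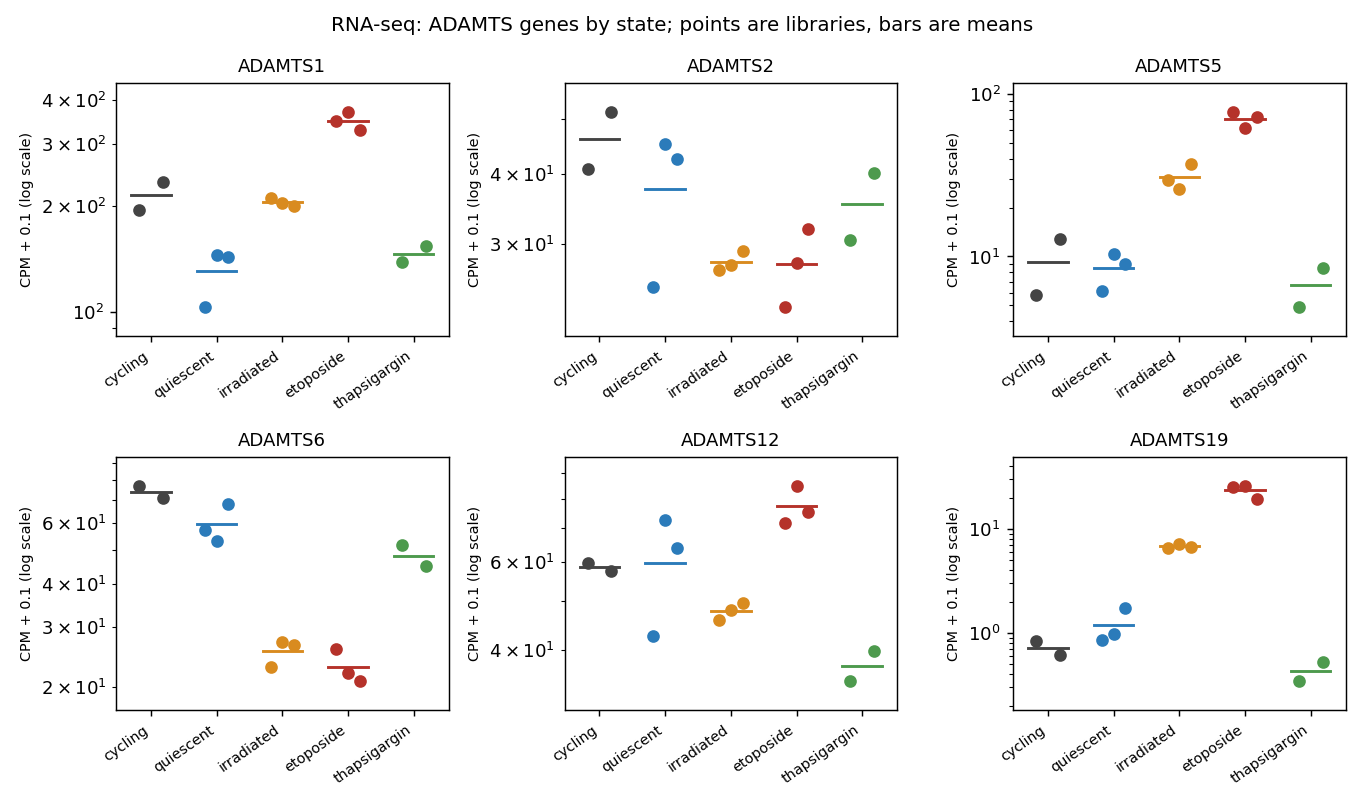
RNA-seq levels of the 6 ADAMTS genes in CPM plus 0.1 on a log axis, 1 point per library and 1 bar per state mean. ADAMTS19 reaches 19.5 to 25.7 CPM after etoposide and 0.519 to 0.73 CPM in cycling cells, while ADAMTS6 is lowest in both senescent states.

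ADAMTS19, a little-studied member with no established matrix substrate and with a known role in heart valves, was the gene with the widest range among states. In RNA-seq it stood at 0.73 and 0.519 CPM in the 2 cycling libraries and at 0.748, 0.868 and 1.65 CPM in the quiescent ones. Irradiated libraries held 6.48, 7.12 and 6.6 CPM, and etoposide libraries 25.1, 25.7 and 19.5 CPM. The states from etoposide down to cycling do not overlap, and the thapsigargin libraries, with 0.244 and 0.422 CPM from 10 and 24 counts, lie under all the others. The mean of 23.4 ± 3.42 CPM (SD, n = 3) after etoposide was 37.5 times the cycling mean, and 6.73 ± 0.336 CPM (SD, n = 3) after irradiation was 10.8 times it. The mean of both senescent states exceeded quiescent cells by 3.53 ± 0.25 on the log2 scale (SE). This value chose the gene and is given with no test; without quiescent RNA-seq replicate 3, the highest quiescent library, it was 3.95. Quiescent cells exceeded cycling cells by 0.76 ± 0.38, a value that dropped to 0.34 without the same library.

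ADAMTS19 footprints kept the same order of states. They came to 0.725, 0.577 and 0.534 CPM in cycling cells, 0.663, 0.866 and 1.43 CPM in quiescent cells, and 1.93, 4.16 and 4.57 CPM in irradiated cells. Etoposide cells held 28.2, 27.4 and 21.3 CPM, and the thapsigargin libraries held 0.545 and 0 CPM, from 1 and 0 counts. Quiescent and cycling footprints overlap, and both senescent states lie above them. Footprint counts were 11, 11 and 16 in irradiated cells and 161, 176 and 123 after etoposide. Against cycling cells the footprints were higher by 2.44 ± 0.46 (SE) on the log2 scale after irradiation (adjusted p = 0.000933, edgeR quasi-likelihood test with Benjamini-Hochberg adjustment) and by 5.36 ± 0.38 after etoposide (adjusted p = 1.46e-07). These Ribo-seq libraries come from cells harvested in parallel with the RNA by which the gene was chosen. ADAMTS19 also passed the filter on low footprint counts only through the senescent libraries. Both calls were thus fixed by the choice and the filter, and these tests lend it no separate support. The senescent mean exceeded quiescent footprints by 3.22 ± 0.33, also given with no test. Quiescent footprints were not called against cycling ones (0.68 ± 0.44, adjusted p = 0.315, edgeR).

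ADAMTS19-AS1 had RNA-seq counts of 2 and 1 in cycling cells, 1, 5 and 0 in quiescent cells, 17, 16 and 13 after irradiation, and 55, 60 and 70 after etoposide, with 0 in both thapsigargin libraries. Both senescent states lie above every other library. The counts are strand-specific, but the opposite strand held 5.41 to 10.7% of RNA-seq gene reads. Reads of this transcript and of ADAMTS19 may thus not be fully kept apart over their 392 shared bases, and the part of such reads was not tested. At the mean levels of 0.594 and 1.86 CPM the antisense transcript stood 3.13 times higher after etoposide than after irradiation, beside 3.48 times for ADAMTS19.

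ADAMTS5, the main aggrecan- and versican-cutting enzyme of the group, also rose in both senescent states. Its RNA-seq values were 5.69 and 12.7 CPM in cycling cells, 6.02, 10.3 and 8.83 CPM in quiescent cells, and 4.78 and 8.4 CPM under thapsigargin. They rose to 29.4, 25.9 and 36.7 CPM after irradiation and to 77.2, 61.7 and 71.9 CPM after etoposide. Both senescent states lie clear of the rest and of each other, while the other 3 states overlap. Against cycling cells, mRNA rose by 1.75 ± 0.34 (SE) on the log2 scale after irradiation (adjusted p = 0.00123, edgeR) and by 2.95 ± 0.35 after etoposide (adjusted p = 2.67e-05). The 2 cycling libraries set these sizes: without cycling replicate 2 the changes were 2.43 and 3.62, and without replicate 1 they were 1.27 and 2.46, all still called.

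ADAMTS5 footprints were 3.32, 7.35 and 4.27 CPM in cycling cells, 2.04, 5.2 and 6.81 CPM in quiescent cells, and 12.3, 13.2 and 12.6 CPM after irradiation. After etoposide they reached 69.4, 50.3 and 57.5 CPM, and the thapsigargin libraries held 0 and 2.09 CPM, from 0 and 4 counts. The etoposide libraries lie far above the irradiated ones, which lie above all the others. The rise over cycling cells was 3.53 ± 0.40 (SE) on the log2 scale after etoposide (adjusted p = 1.36e-05, edgeR) and 1.31 ± 0.42 after irradiation (adjusted p = 0.023). The irradiation call rests on few libraries: it was lost without cycling Ribo-seq replicate 1 (1.10, adjusted p = 0.0814), cycling replicate 3 (1.25, 0.0619), irradiated replicate 1 (1.34, 0.0607) or irradiated replicate 2 (1.29, 0.0569). Over both kinds of senescence ADAMTS5 exceeded quiescent cells by 2.47 ± 0.27 in RNA (adjusted p = 1.93e-05, edgeR) and 2.55 ± 0.36 in footprints (adjusted p = 0.000173).

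ADAMTS1, a proteoglycanase that cuts versican and is known as an inflammation-induced gene, separated the senescent states. Its RNA-seq values were 195 and 234 CPM in cycling cells, 211, 204 and 200 CPM after irradiation, and 348, 369 and 328 CPM after etoposide. Quiescent cells held 103, 145 and 143 CPM and thapsigargin cells 138 and 154 CPM. The etoposide libraries lie above all the others, irradiated and cycling libraries overlap, and quiescent and thapsigargin libraries lie under both. After etoposide the mRNA rose by 0.70 ± 0.15 (SE) on the log2 scale (adjusted p = 0.00244, edgeR), while irradiated cells differed from cycling ones by -0.07 ± 0.14 (adjusted p = 0.761). Quiescent cells were lower than cycling cells by -0.72 ± 0.14 (adjusted p = 0.00466, edgeR), so that the senescent mean exceeded quiescent cells by 1.04 ± 0.12 (adjusted p = 2.36e-05). The etoposide call was lost without cycling RNA-seq replicate 1 (0.57, adjusted p = 0.0532) and the quiescent call without cycling replicate 2 (-0.58, adjusted p = 0.0718).

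ADAMTS1 footprints were 204, 262 and 254 CPM in cycling cells, 142, 170 and 124 CPM after irradiation, and 628, 542 and 467 CPM after etoposide. Quiescent cells spread from 55.8 through 150 to 187 CPM, and thapsigargin cells held 87.7 and 111 CPM. Etoposide again lies above every other library, and here the irradiated libraries lie under the cycling ones. The rise after etoposide was 1.18 ± 0.31 (SE) on the log2 scale (adjusted p = 0.00923, edgeR), and the irradiated value of -0.73 ± 0.31 was not called (adjusted p = 0.08), though with only the 2 groups compared in the fit it was (-0.69, adjusted p = 0.000124). The quiescent value of -0.87 ± 0.31 was not called (adjusted p = 0.0585, edgeR), but it was called without quiescent Ribo-seq replicate 1 (-0.51, adjusted p = 0.0394) or replicate 3 (-1.20, adjusted p = 0.0111). The senescent mean exceeded quiescent footprints by 1.10 ± 0.28 (adjusted p = 0.0105, edgeR).

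ADAMTS2, the procollagen N-proteinase that trims the amino propeptide of type I and III collagens, was lower in senescent cells. It stood at 40.6 and 51.3 CPM in cycling RNA, 25.1, 45.1 and 42.4 CPM in quiescent cells, 26.9, 27.4 and 29.1 CPM after irradiation, and 23.1, 27.7 and 31.8 CPM after etoposide. Both senescent states lie under the cycling libraries and overlap each other, and the quiescent spread reaches down to them. Against cycling cells, mRNA fell by 0.72 after irradiation (SE 0.22, adjusted p = 0.0222, edgeR) and changed by -0.74 after etoposide (SE 0.22, adjusted p = 0.0207). Both calls were lost without cycling RNA-seq replicate 2 (-0.55, adjusted p = 0.186, and -0.56, adjusted p = 0.176), the first also without irradiated replicate 1 (0.0641) or 2 (0.0549), and the second also without etoposide replicate 1 (0.0705) or 2 (0.0538).

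ADAMTS2 footprints were 32.5, 31.8 and 36.1 CPM in cycling cells, 11.5, 24.3 and 40.2 CPM in quiescent cells, 16.7, 15.9 and 14.6 CPM after irradiation, and 24.2, 23.8 and 27.6 CPM after etoposide. Irradiated libraries lie under the cycling and etoposide ones, and the quiescent libraries span nearly the whole range. The fall after irradiation was called (-1.09 ± 0.33 SE on the log2 scale, adjusted p = 0.0187, edgeR), and the etoposide value was not (-0.41 ± 0.31, adjusted p = 0.343), except with only the 2 groups compared in the fit (-0.41, adjusted p = 0.00986). The irradiation call was lost without cycling Ribo-seq replicate 3 (adjusted p = 0.0565), irradiated replicate 1 (0.0511) or irradiated replicate 3 (0.0688), with changes of -0.995, -1.142 and -1.005 in that order. Senescent cells did not differ from quiescent ones by the test in RNA (-0.44 ± 0.17, adjusted p = 0.0637, edgeR) or footprints (-0.35 ± 0.27, adjusted p = 0.381). Without quiescent replicate 1 both were called, at -0.65 in RNA (adjusted p = 0.00403) and -0.70 in footprints (adjusted p = 0.0076), while without quiescent Ribo-seq replicate 3 the footprint value turned to 0.16 (adjusted p = 0.626).

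ADAMTS6, a regulator of fibrillin microfibrils, showed the largest fall among the 6 genes in both senescent states in RNA. It stood at 76.9 and 70.8 CPM in cycling RNA, 57.1, 53.3 and 68.4 CPM in quiescent cells, 22.8, 26.9 and 26.4 CPM after irradiation, and 25.7, 21.8 and 20.7 CPM after etoposide. The senescent states overlap each other and lie under every other library. The mRNA fell by 1.54 (SE 0.14) on the log2 scale after irradiation (adjusted p = 3.33e-06, edgeR) and changed by -1.70 (SE 0.14) after etoposide (adjusted p = 1.06e-06), and the senescent mean fell by 1.31 (SE 0.11) from quiescent cells (adjusted p = 1.31e-06). All 3 calls held with each library left out in turn.

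ADAMTS6 footprints were 10.7, 10.8 and 11.6 CPM in cycling cells, 3.36, 5.54 and 6.04 CPM in quiescent cells, 1.76, 1.89 and 0.857 CPM after irradiation (10, 5 and 3 counts), and 3.33, 4.05 and 2.6 CPM after etoposide (19, 26 and 15 counts). Irradiated libraries lie under all the others, quiescent and etoposide libraries overlap, and cycling libraries lie above these 3 states. Footprints fell by 2.86 (SE 0.47) on the log2 scale after irradiation (adjusted p = 0.000307, edgeR) and changed by -1.72 (SE 0.38) after etoposide (adjusted p = 0.00321), and these calls held with each library left out in turn. Quiescent cells were lower by -1.15 ± 0.34 (adjusted p = 0.0259, edgeR), a call lost with 5 of the 6 libraries left out in turn, that is all but quiescent replicate 3 (adjusted p up to 0.0866, changes -0.93 to -1.29 over the 6). The senescent mean was lower than quiescent cells by -1.14 ± 0.35 (adjusted p = 0.0272, edgeR), a call lost without quiescent Ribo-seq replicate 2 (-1.06) or 3 (-0.97), irradiated replicate 1 (-1.24) or 3 (-1.01), or etoposide replicate 3 (-1.07), with adjusted p up to 0.0835.

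ADAMTS12, which cuts cartilage oligomeric matrix protein, was called against cycling cells under thapsigargin alone among the states. Its RNA-seq values were 59.5 and 57.3 CPM in cycling cells, 42.5, 72.4 and 63.7 CPM in quiescent cells, 45.9, 48 and 49.6 CPM after irradiation, and 71.6, 84.7 and 75.1 CPM after etoposide. Irradiated libraries lie under the cycling ones and etoposide libraries above them, while the quiescent libraries overlap all 3. The irradiated value of -0.29 ± 0.18 (SE) on the log2 scale (adjusted p = 0.229, edgeR) and the etoposide value of 0.40 ± 0.18 (adjusted p = 0.101) were not called; with only the 2 groups compared in the fit both were called (-0.31, adjusted p = 0.0122, and 0.39, adjusted p = 0.0168). Footprints were 29, 32.4 and 34.6 CPM in cycling cells, 13.1, 30.7 and 40.2 CPM in quiescent cells, 21.9, 18.1 and 21.7 CPM after irradiation, and 55.5, 51.4 and 45.3 CPM after etoposide. The etoposide libraries lie above all the others and the irradiated ones under the cycling ones, and neither value was called (-0.63 ± 0.43, adjusted p = 0.271, and 0.67 ± 0.40, adjusted p = 0.229, edgeR). With only the 2 groups compared in the fit, both footprint values were called too (-0.58, adjusted p = 0.00171, and 0.67, adjusted p = 0.000157).

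**Figure D2:**
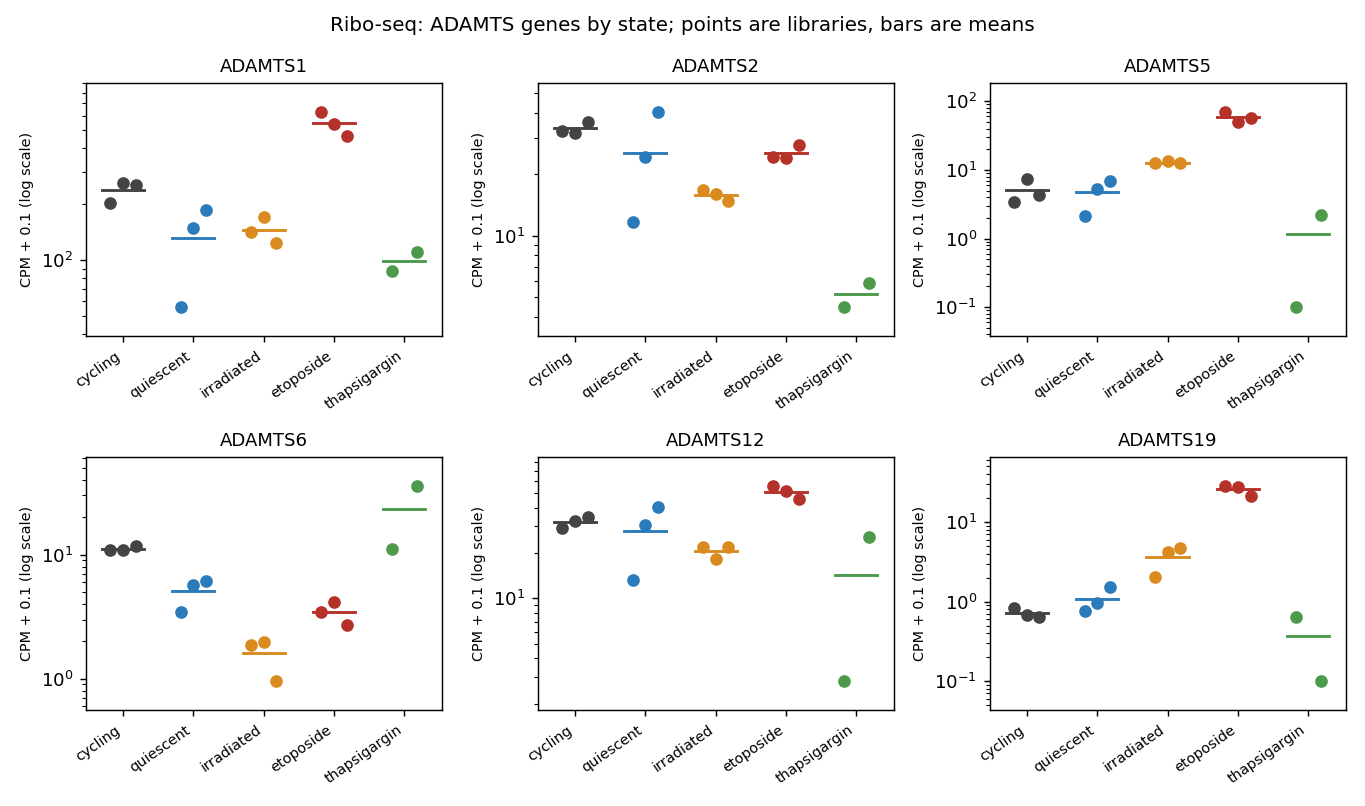
Ribo-seq levels of the 6 ADAMTS genes in CPM plus 0.1 on a log axis, 1 point per library and 1 bar per state mean. Etoposide libraries are highest for ADAMTS1, ADAMTS5, ADAMTS12 and ADAMTS19, and the thapsigargin libraries of ADAMTS12 (2.72 and 25.6 CPM) and ADAMTS6 (10.9 and 35.5 CPM) lie far apart.

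All 6 ADAMTS genes passed the filter on low counts in RNA-seq and in Ribo-seq, and the counts of called members are given beside the share of all genes called. The comparisons with cycling cells share the same cycling libraries, and ADAMTS19 is left out where it has no test. In quiescent RNA, 1 of 5 was called, the lower ADAMTS1, where 15.6% of the 13286 genes tested were called and 10.4% were lower. In quiescent footprints 1 of 6 was called, the lower ADAMTS6, where 21.7% of 11763 genes were called and 14.6% were lower. ADAMTS19, which passed the footprint filter only through senescent libraries, was among these 6 and was not called, so 1 of the other 5 was. After irradiation, 3 of 5 were called in RNA (34.9% of genes), 1 higher (16.2% of genes) and 2 lower (18.8%). In irradiated footprints 4 of 6 were called (39.8%), 2 higher (17.2%) and 2 lower (22.6%), but the choice of ADAMTS19 and its passing the filter only through senescent libraries fixed its call, and without it 3 of 5 were called, 1 higher and 2 lower. After etoposide, 4 of 5 were called in RNA (34.6%), 2 higher (16.8%) and 2 lower (17.8%), and in footprints 4 of 6 (34%), 3 higher (16.4%) and 1 lower (17.6%), or without ADAMTS19 3 of 5, 2 higher and 1 lower. In the senescent mean against quiescent cells, 3 of 5 were called in RNA (34.2%; 16.6% higher and 17.6% lower) and 3 of 5 in footprints (25.9%; 12.4% higher and 13.6% lower), each time ADAMTS1 and ADAMTS5 higher and ADAMTS6 lower. Without ADAMTS19, median changes of the other 5 genes were -0.29 (RNA) and -0.73 (footprints) after irradiation, and 0.40 and 0.67 after etoposide, beside medians over all genes tested of 0.03, -0.01, 0.00 and -0.01.

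**Figure D3:**
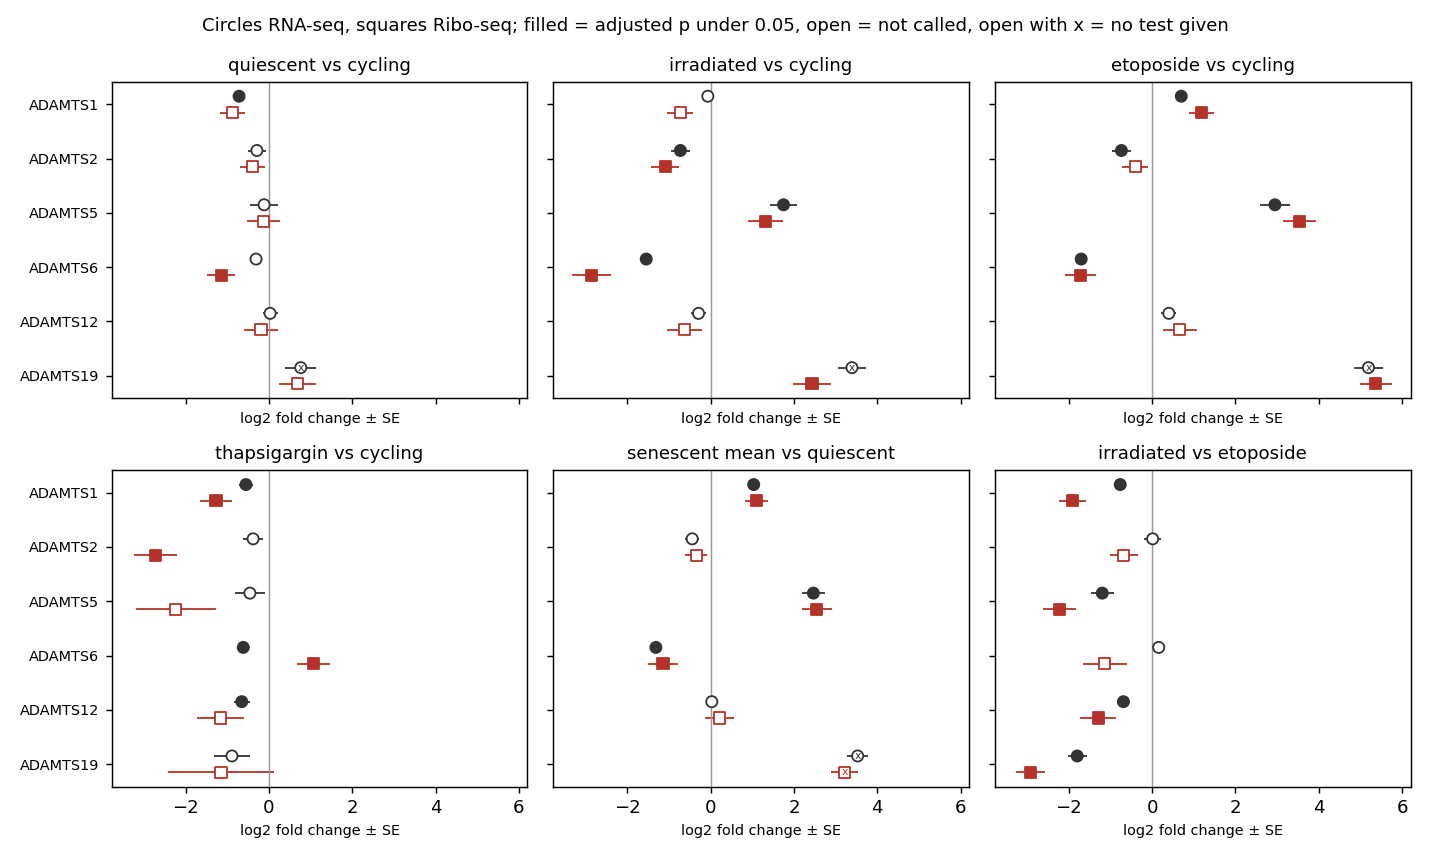
Log2 fold changes with SE of the 6 ADAMTS genes in 6 comparisons, circles for RNA-seq and squares for Ribo-seq, filled where the adjusted p was under 0.05, open where it was not, and marked x where no test is given. ADAMTS5 and ADAMTS19 lie farthest to the right after etoposide (2.95 and 5.19 in RNA), and ADAMTS6 lies to the left in both senescent states. The filled ADAMTS19 squares of irradiated and etoposide against cycling cells were fixed by its choice and the filter.

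The senescent states differed from each other in 4 of the 6 genes, in RNA (22.6% of genes were called, 12.9% lower) and in footprints (21.7%, 13.9% lower), and in all these cases the level was lower after irradiation than after etoposide. The 4 include ADAMTS19, which was chosen for its rise in senescent cells and passed the footprint filter only through senescent libraries. Of the other members, ADAMTS1, ADAMTS5 and ADAMTS12 were called, and ADAMTS2 and ADAMTS6 were not. ADAMTS19 was lower after irradiation with a log2 difference of -1.80 ± 0.23 (SE) in RNA (adjusted p = 0.000223, edgeR) and of -2.93 ± 0.35 in footprints (adjusted p = 0.000227). For ADAMTS5 the difference was -1.20 ± 0.27 in RNA (adjusted p = 0.00697, edgeR), and -2.22 ± 0.39 among its footprints (adjusted p = 0.00173). ADAMTS1 differed by -0.77 ± 0.13 in RNA (adjusted p = 0.00112, edgeR), and its footprints by -1.91 ± 0.32 (adjusted p = 0.0014). For these 3 genes no library of either state overlapped the other in either assay, and the calls held with each library left out in turn. ADAMTS12, whose states did not overlap either, differed by -0.69 ± 0.16 in RNA (adjusted p = 0.00729, edgeR) and by -1.29 ± 0.43 in footprints (adjusted p = 0.0481). Its RNA call held in the same way, but its footprint call was lost when any of the 6 libraries was left out (changes -1.37 to -1.22, adjusted p 0.0794 to 0.136) and without the low-count filter (adjusted p = 0.11). ADAMTS2 (0.01 ± 0.20 in RNA, -0.68 ± 0.34 in footprints) and ADAMTS6 (0.16 ± 0.13 and -1.14 ± 0.53) were not called, with adjusted p of 0.971, 0.189, 0.427 and 0.151; with only the 2 senescent groups in the fit, the footprint values were called for ADAMTS2 (-0.69, adjusted p = 0.000571) and ADAMTS6 (-1.15, adjusted p = 0.0222). The median change of the 6 genes, the chosen ADAMTS19 among them, was -0.73 in RNA and -1.60 in footprints, beside 0.06 and 0.04 over all genes tested.

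Footprints relative to mRNA (translational efficiency, the Ribo-seq change minus the RNA-seq change, tested as an interaction over all 27 libraries) did not differ by the test for any ADAMTS gene outside thapsigargin. No member was called in quiescent (0.00854% of the 11712 genes tested were called), irradiated (0.0512%) or etoposide cells (0.0683%) against cycling cells, nor between senescent and quiescent cells (0.0427%). At an unadjusted p under 0.05, 405, 781, 448 and 565 genes passed in these 4 comparisons, and DESeq2 called 6, 32, 40 and 38. ADAMTS6 had the largest values among the tested members, -1.20 ± 0.47 (SE, log2) after irradiation (adjusted p = 0.636, edgeR) and -0.73 ± 0.33 in quiescent cells (adjusted p = 1). Between the senescent states no gene at all was called (0%; 769 genes at an unadjusted p under 0.05, and 6 by DESeq2). All 6 members had values under 0 there, from -0.44 ± 0.44 for ADAMTS12 to -1.14 ± 0.50 for ADAMTS6, with -0.98 ± 0.41 for ADAMTS19 (adjusted p = 0.676, edgeR). With only the 2 senescent groups in the fit, all 6 were called in this comparison, with adjusted p from 0.000139 (ADAMTS1, -1.16) to 0.0389 (ADAMTS6, -1.31), as were 606 of all genes. Likewise, with only irradiated and cycling cells in the fit, ADAMTS1 (-0.69, adjusted p = 0.013) and ADAMTS6 (-1.33, adjusted p = 0.0107) were called, among 760 genes.

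**Figure D4:**
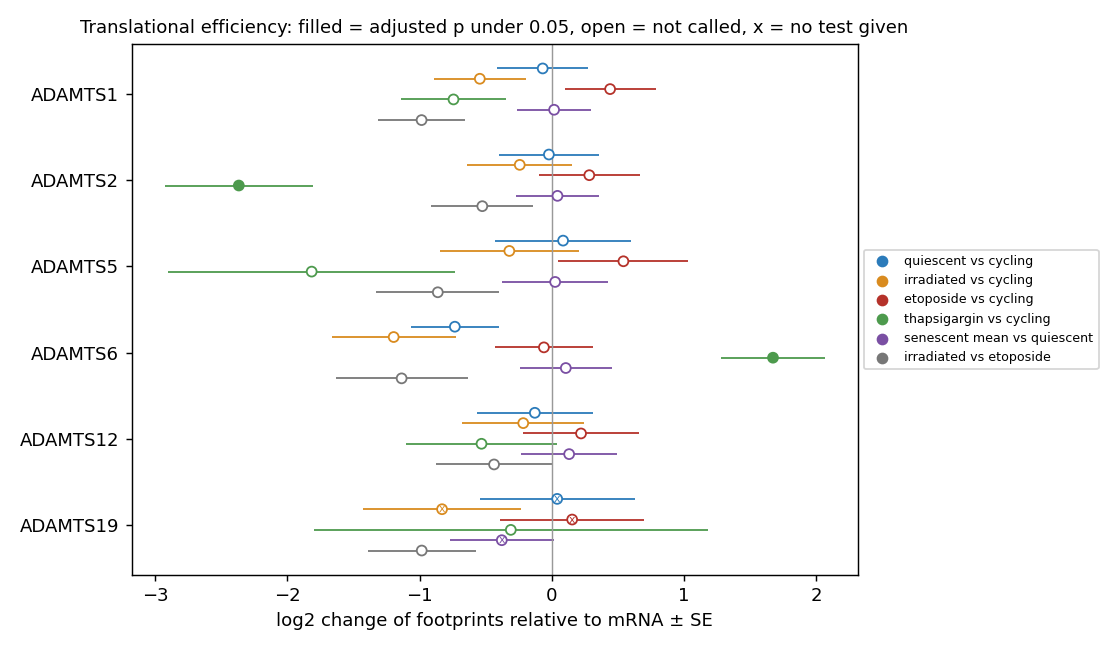
Log2 change of footprints relative to mRNA with SE for each ADAMTS gene, 1 colour per comparison, filled where the adjusted p was under 0.05, open where it was not, and marked x where no test is given for ADAMTS19. The filled points are ADAMTS2 at -2.37 and ADAMTS6 at 1.67, both under thapsigargin.

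Several ADAMTS genes were lower after 3 h of thapsigargin. In RNA, 3 of 6 were called, each of them lower (24.5% of genes were called, 12.8% lower): ADAMTS1 at 138 and 154 CPM, ADAMTS6 at 51.6 and 44.8 CPM, and ADAMTS12 at 34.6 and 39.7 CPM, each under both cycling libraries. The changes were -0.55 ± 0.16 (SE, log2) for ADAMTS1 (adjusted p = 0.0217, edgeR), -0.62 ± 0.16 for ADAMTS6 (adjusted p = 0.0124) and -0.65 ± 0.20 for ADAMTS12 (adjusted p = 0.0268). These calls rest on the pooled spread: with only both groups in the fit, the adjusted p was 0.0986, 0.0718 and 0.0643. They were lost for ADAMTS12 without any of the 4 libraries (-0.55 to -0.74), for ADAMTS1 without cycling replicate 2 (-0.42) or thapsigargin replicate 1 (-0.47), and for ADAMTS6 without cycling replicate 1 (-0.56) or thapsigargin replicate 2 (-0.50). ADAMTS2 (-0.38 ± 0.25, adjusted p = 0.283, edgeR), ADAMTS5 (-0.46 ± 0.35, adjusted p = 0.377) and ADAMTS19 (-0.89 ± 0.44, adjusted p = 0.159) were not called. The median change of the 6 was -0.59, beside -0.03 over all genes tested.

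Among thapsigargin footprints, 3 of 6 genes were called (44.4% of genes), 2 lower (24.4%) and 1 higher (20%). ADAMTS19, which passed the footprint filter only through senescent libraries, was among these 6 and was not called. ADAMTS2 footprints fell to 4.36 and 5.74 CPM, from 8 and 11 counts, under every library of the other states, a change of -2.72 ± 0.51 (SE, log2; adjusted p = 0.000933, edgeR). Its mRNA stood at 30.4 and 40 CPM, and its footprints relative to mRNA fell by 2.37 (SE 0.56, adjusted p = 0.0046, edgeR), where 2 of 6 members and 20.7% of genes were called, 12.9% lower and 7.86% higher. ADAMTS1 footprints fell by 1.27 (SE 0.38, adjusted p = 0.0147, edgeR), a call lost without thapsigargin Ribo-seq replicate 1 (-1.13, adjusted p = 0.114).

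The higher gene was ADAMTS6, with 10.9 and 35.5 CPM from 20 and 68 counts, a change of 1.08 ± 0.39 (adjusted p = 0.0394, edgeR) in footprints and 1.67 ± 0.39 relative to mRNA (adjusted p = 0.00411). Replicate 1 lies within the cycling range, and the change comes from replicate 2. Without thapsigargin Ribo-seq replicate 2 the values were 0.00 in footprints (adjusted p = 0.998) and 0.53 relative to mRNA (adjusted p = 0.306), and the footprint call was also lost without any 1 of the cycling libraries (1.05 to 1.14) and with only the groups compared (adjusted p = 0.111 in footprints and 0.0614 relative to mRNA). ADAMTS12 footprints also differed between the replicates, at 2.72 and 25.6 CPM from 5 and 49 counts, with replicate 2 again the higher. They were not called (-1.16 ± 0.57, adjusted p = 0.111, edgeR), but without replicate 2 they were (-3.53, adjusted p = 0.00523), as was the value relative to mRNA (-2.97, adjusted p = 0.00534). ADAMTS5, with 0 and 4 footprint counts (-2.24 ± 0.96, adjusted p = 0.0715, edgeR), was called by DESeq2 (adjusted p = 0.0196), and ADAMTS19, with 1 and 0, was not called (adjusted p = 0.487, edgeR).

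Other members of the family changed in their own ways. Of 13 other ADAMTS genes, 9 were tested in RNA and 7 in footprints, and ADAMTS16, ADAMTS17, ADAMTS18 and ADAMTS20 had at most 13 counts in any RNA-seq library. In RNA, 2 of the 9 rose and 2 fell after irradiation (16.2% and 18.8% of all genes), 3 rose and 4 fell after etoposide (16.8% and 17.8%), and 5 fell under thapsigargin with none higher (12.8% of all genes lower). The median change of the 9 was 0.13, 0.28 and -1.12 in these comparisons, beside 0.03, 0.00 and -0.03 over all genes. ADAMTS8, which has antiangiogenic activity, rose from 6.22 ± 3.53 CPM (SD, n = 2) in cycling RNA to 21 ± 4.09 CPM (SD, n = 3) after etoposide (1.77 ± 0.36 SE on the log2 scale, adjusted p = 0.00208, edgeR). It also rose in quiescent cells, to 16.5 ± 6.17 CPM (SD, n = 3) (1.42 ± 0.36, adjusted p = 0.0169, edgeR), and stood at 18.9 ± 2.23 CPM (SD, n = 3) after irradiation. It fell to 0.345 ± 0.108 CPM (SD, n = 2) under thapsigargin (-4.10 ± 0.49, adjusted p = 6.79e-05, edgeR), where both of its footprint libraries held 0. ADAMTS3, a second procollagen N-proteinase, was lower after irradiation (-1.52 ± 0.28, adjusted p = 0.00107, edgeR), and was also called lower in quiescent, etoposide and thapsigargin RNA. It averaged 4.64 CPM in cycling RNA and 2.49, 1.62, 1.79 and 2.38 CPM in quiescent, irradiated, etoposide and thapsigargin RNA. Senescent RNA was not called against quiescent RNA for this gene. Between the senescent states 2 of the 9 were called (22.6% of all genes), both higher after irradiation, with ADAMTS15, a versican-cutting member, at 1.12 ± 0.29 (adjusted p = 0.0133, edgeR). ADAMTS-like genes share the ancillary domains but lack the protease. Of 5 tested in RNA, 1 rose (PAPLN) and 1 fell (ADAMTSL1) after irradiation (16.2% and 18.8% of all genes). After etoposide 2 rose and 1 fell (16.8% and 17.8%). ADAMTSL1 was lower after irradiation (-1.84 ± 0.20, adjusted p = 1.12e-05, edgeR) and after etoposide (-1.68 ± 0.19, adjusted p = 1.98e-05), and was also called lower in quiescent RNA.

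Of the genes that ready ADAMTS proteins for secretion, 5 of 6 were tested in RNA. FURIN and PCSK7, which remove the prodomain, and POFUT2 and B3GLCT, which add the O-linked fucose and glucose, were all lower in quiescent cells, in RNA (10.4% of all genes lower) and in footprints (14.6%), and in irradiated cells, in RNA (18.8%) and in footprints (22.6%). FURIN mRNA averaged 67.5 ± 7.83 CPM (SD, n = 2) in cycling cells and 31.6 ± 1.41 CPM (SD, n = 3) after irradiation (-1.09 ± 0.16 SE on the log2 scale, adjusted p = 0.000153, edgeR), against 54 ± 7.35 CPM (SD, n = 3) after etoposide (-0.32 ± 0.16, adjusted p = 0.136). After etoposide, 2 of the 5 rose and 1 fell in RNA (16.8% and 17.8% of all genes). PCSK5, another convertase, rose (2.30 ± 0.33, adjusted p = 0.000122, edgeR), as did POFUT2, from a mean of 56.4 CPM in cycling cells to 88.6 CPM, and B3GLCT fell. PCSK5 and POFUT2 were also called higher in etoposide footprints, where 16.4% of all genes were higher. All 5 were lower after irradiation than after etoposide in RNA (12.9% of all genes), with a median of -0.77 beside 0.06 over all genes.

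Of the 6 inhibitors and clearance genes, TIMP3, the main tissue inhibitor of ADAMTS4 and ADAMTS5, was called in neither senescent state in RNA (-0.05 ± 0.28 after irradiation, adjusted p = 0.911, and 0.51 ± 0.29 after etoposide, adjusted p = 0.185, edgeR). A2M, which traps many proteinases, rose from 0.177 ± 0.0435 CPM (SD, n = 2) in cycling cells to 1.34 ± 0.704 CPM (SD, n = 3) in quiescent cells (2.92 ± 0.62 SE on the log2 scale, adjusted p = 0.00649, edgeR). It reached 5.04 ± 0.891 CPM (SD, n = 3) after irradiation (4.84 ± 0.58, adjusted p = 2.96e-05, edgeR) and 2.2 ± 0.713 CPM (SD, n = 3) after etoposide (3.64 ± 0.59, adjusted p = 0.00037). No cycling RNA-seq library of A2M reached the filter's cutoff of 0.372 CPM, so it entered the test only through other states. TIMP1 stood at 2200 ± 157 CPM (SD, n = 3) after etoposide and 690 ± 61.6 CPM (SD, n = 3) after irradiation, the same direction between inducers as ADAMTS1, ADAMTS5 and ADAMTS19 (-1.67 ± 0.16, adjusted p = 5.41e-05, edgeR). A2M was called the other way, higher after irradiation than after etoposide. Of the 6 genes, 1 was thus called lower and 1 higher in this RNA comparison, where 22.6% of all genes were called. Against cycling RNA, 1 rose and 1 fell after irradiation (16.2% and 18.8% of all genes), and 2 rose after etoposide (16.8%). LRP1, the endocytic receptor that clears ADAMTS5, was not called in RNA in either senescent state (adjusted p = 0.392 and 0.105, edgeR), and its footprints rose after etoposide (0.94 ± 0.29, adjusted p = 0.0216).

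Of 13 substrates and matrix partners tested in RNA, 2 fell after irradiation (18.8% of all genes), 4 fell and 2 rose after etoposide (17.8% and 16.8%), and 8 fell under thapsigargin (12.8%). In footprints, 8 of 12 fell after irradiation (22.6% of all genes) and 10 of 12 under thapsigargin (24.4%), and none rose in these 2 comparisons, with medians of -1.11 and -2.16 beside -0.01 and -0.11 over all genes. VCAN, the versican cut by ADAMTS1 and ADAMTS5, was not called in RNA after irradiation (-0.61 ± 0.28, adjusted p = 0.11, edgeR) or etoposide (0.56 ± 0.29, adjusted p = 0.15), but was lower after irradiation than after etoposide (-1.17 ± 0.26, adjusted p = 0.00534). VCAN footprints were called lower after irradiation, averaging 83.1 CPM against 256 CPM in cycling cells. After etoposide they averaged 455 CPM and were not called against cycling cells. COL1A1, whose precursor ADAMTS2 trims, was called lower in RNA after etoposide (-1.22 ± 0.45, adjusted p = 0.0483, edgeR). Its etoposide RNA libraries, at 495 to 980 CPM, overlapped the 2 cycling ones, at 922 and 2250 CPM. COL1A1 footprints fell after irradiation (-1.44 ± 0.28, adjusted p = 0.00103, edgeR) and etoposide (-0.93 ± 0.27, adjusted p = 0.0176). The 2 that rose after etoposide were FBN2, a fibrillin, and COMP, a substrate of ADAMTS12. COMP averaged 0.0183 CPM in cycling RNA and 0.694 ± 0.276 CPM (SD, n = 3) after etoposide. No cycling RNA-seq library of COMP reached the filter's cutoff of 0.372 CPM, so it entered the test only through other states. COMP footprints were also called higher in quiescent cells, averaging 3.97 CPM there, 0.579 CPM in cycling cells and 3.33 CPM after etoposide. Of 9 ADAM proteinases, the membrane-bound relatives, 5 were lower and none higher after irradiation in RNA (18.8% and 16.2% of all genes), with ADAM12 at -2.14 ± 0.23 (adjusted p = 1.14e-05, edgeR).

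Genes whose RNA levels ran most alike were found by Pearson's r of log2 CPM over the 13 RNA-seq libraries, which share their states and so give a description only. NSG1, an endosomal protein of neurons, was first for both ADAMTS19 (r = 0.99) and ADAMTS5 (r = 0.97), and those members had r = 0.96 with each other. NSG1 averaged 4.81 ± 1.12 CPM (SD, n = 2) in cycling cells, 21.3 ± 0.395 CPM (SD, n = 3) after irradiation and 49.5 ± 10.1 CPM (SD, n = 3) after etoposide. SHC4 and OLR1 came next for ADAMTS19 (r = 0.99 and 0.98), and BMPER and TENM1 for ADAMTS5 (r = 0.96 for both). TENM1 was near the floor, at 0 CPM in cycling, quiescent and thapsigargin cells, 0.129 CPM after irradiation and 0.41 CPM after etoposide. OLR1, the receptor for oxidized LDL, averaged 10.7 ± 1.12 CPM (SD, n = 2) in cycling cells and 110 ± 17.9 CPM (SD, n = 3) after etoposide. ADAMTS1 ran most like STOM, MPPE1 and MGAT5 (r = 0.98, 0.96 and 0.96), and ADAMTS6 like RBMX, FUBP1 and H3-3B (r = 0.98, 0.98 and 0.97), of which RBMX and FUBP1 encode nucleic acid-binding proteins. ADAMTS2 ran most like COL5A1, MUTYH and COL1A1 (r = 0.92, 0.91 and 0.89), 2 of them fibrillar collagen genes, and ADAMTS12 like VCAN, OSMR and COL8A1 (r = 0.95, 0.95 and 0.94). MUTYH was also near the floor, averaging at most 0.369 CPM in any state. ADAMTS5 and ADAMTS6 ran opposite ways (r = -0.89), as did ADAMTS19 and ADAMTS6 (r = -0.87).

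Markers of other cell types were low, with some exceptions. Of 4 endothelial markers, PECAM1, CDH5 and KDR averaged at most 0.457 CPM in any state, and PECAM1 and CDH5 were at 0 in cycling and thapsigargin RNA. TEK alone passed 1 CPM and, like ADAMTS5 and ADAMTS19, was highest after etoposide, so that the endothelial sum was 17.6 to 23.7 CPM in cycling, 13.1 to 26.6 in quiescent, 31.6 to 35.3 in irradiated, 55.6 to 88.9 in etoposide and 3.32 to 4.02 in thapsigargin RNA. None of 3 leukocyte markers averaged 1 CPM, with sums of at most 0.256 CPM outside etoposide and 1.01 to 1.21 CPM after it. Smooth muscle markers MYH11 and DES summed to 38 to 55.5 CPM after irradiation and at most 19 CPM in any other state. Epithelial markers summed to 101 to 111 CPM under thapsigargin, nearly all KRT19 and KRT8, and at most 45.5 CPM in any other state, while EPCAM and CDH1 averaged at most 0.731 CPM in any state. The part of TEK, MYH11 and the keratins in the ADAMTS results was not tested.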

How the data were processed

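RNA-seq (13 libraries) and Ribo-seq (14 libraries) were grouped by the sample titles. The authors deposited raw counts of reads per gene and strand. Per the submitters' processing notes, bcl2fastq, STAR 2.7.10b, the hg38 build and DESeq2 1.36.0 were used; the annotation release and read trimming are not given in the sources used here. Per the labels' protocols, RNA-seq libraries used a stranded kit and footprints a small RNA kit, and the RNase incubation time differs between places in the labels.

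RNA-seq values are counts on the reverse strand, and Ribo-seq values those on the forward strand (the opposite strand held 3.56 to 10.7%). The 60534 IDs common to both gene lists held 99.6 to 99.97% of each library's counts. Of these, 60461 had a symbol and 40525 a RefSeq biotype, 19295 of them distinct protein-coding genes. Lines naming no gene (unmapped 1.35 to 40.6% of reads, multiply mapped 9.43 to 66.9%, no feature 0.718 to 2.63%) were left out. Genes were filtered with filterByExpr (minimum count 10), TMM-scaled and tested with edgeR 4.0.16 in R 4.3.3 (two-sided quasi-likelihood test, robust, all states in 1 fit per assay, all 27 libraries for translational efficiency), with Benjamini-Hochberg adjustment over all genes tested and calls at 0.05. TMM sets the average change near 0, so a change common to all genes could not be seen. The tests were tested on simulated data.

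The members and lists were chosen with earlier results of these data known. Of each list, the called gene with the largest rise and with the largest fall per comparison could be named, plus TIMP3, LRP1, FURIN, VCAN and COL1A1; PCSK7, POFUT2, B3GLCT, PCSK5, TIMP1, FBN2 and COMP beyond that were named after their values were seen, as were the markers and untested family members named. For each member the 3 genes of highest r were named. Alternatives were DESeq2 1.42.0, RLE scaling, no low-count filter, unstranded counts, only the groups compared, the replicate number as a block, and each library left out. No 2 libraries of a group differed by less than sampling noise.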

Additional observations from a re-analysis of the deposited data

Results flagged for a closer look

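Irradiated and etoposide senescent cells were compared directly, and the effect of irradiation differed from that of etoposide by the edgeR test in 4 of the 6 genes. The 4 include ADAMTS19, which was chosen for its rise in senescent cells. In RNA the difference (irradiation minus etoposide, log2) was -0.7653 for ADAMTS1, -1.1966 for ADAMTS5, -0.6892 for ADAMTS12 and -1.7977 for ADAMTS19. In footprints it was -1.9114 for ADAMTS1, -2.2207 for ADAMTS5, -1.2908 for ADAMTS12 and -2.9281 for ADAMTS19, and the ADAMTS12 value there was not called with any library left out.

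ADAMTS19-AS1, a noncoding RNA outside the tests of protein-coding genes, was flagged because its RNA-seq counts stood above the cycling libraries, which held 3 counts in all. They came to 46 over 3 irradiated libraries and 185 over 3 etoposide libraries.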

How the results depend on the processing

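RLE scaling and unstranded counts changed no call for the 6 genes. The number of members called moved as follows. With only the groups compared in the fit, it was 0 in place of 3 for thapsigargin RNA, 4 in place of 3 for irradiated RNA and 5 in place of 4 for etoposide RNA. In footprints it was then 6 in place of 4 for irradiated cells, for etoposide cells and between the senescent states, and 2 in place of 3 under thapsigargin. For irradiated and etoposide footprints the 6 include ADAMTS19, whose call was fixed by its choice and the filter. The counts between the senescent states include ADAMTS19 too. Fitting only the groups compared also called more of all genes in etoposide footprints and between senescent footprints, as given below. All-gene counts under that fit are not given here for irradiated RNA, etoposide RNA or the footprints of irradiated and thapsigargin cells. For translational efficiency the number of members called was then 2 in place of 0 after irradiation, 1 in place of 2 under thapsigargin and 6 in place of 0 between the senescent states. By DESeq2 it was 2 in place of 1 in quiescent and 4 in place of 3 in thapsigargin footprints, and without the low-count filter 3 in place of 4 between the senescent footprints. With each library left out in turn it ran from 1 to 1 for thapsigargin RNA, from 0 to 1 for quiescent RNA, from 0 to 3 for quiescent footprints and from 2 to 4 for irradiated footprints. Where that left 1 cycling or thapsigargin library, it was assumed to vary like the other groups. The ADAMTS6 footprint change under thapsigargin reversed to -0.002 without thapsigargin Ribo-seq replicate 2 (range -0.002 to 1.67). Over the members' results, leaving out a library kept 808 values on their side of the threshold or, for untested ADAMTS19 values, within the main fit's SE. Of the rest, 44 lost a call, 7 gained one, 4 untested ADAMTS19 values moved by more than that SE and 1 reversed.

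Same-numbered libraries of different states had correlations over 0.1 in 9 of 23 RNA-seq and 6 of 26 Ribo-seq pairs. With different numbers, 13 of 44 RNA-seq and 5 of 52 Ribo-seq pairs did. RNA-seq and Ribo-seq libraries of the same state and number passed 0.1 in 6 of 13 pairs, against 2 of 24 with different numbers. As not every pair passed, the numbers were not taken to pair the libraries. With the replicate block, 2 in place of 1 members were called in quiescent footprints: ADAMTS1 was called (-0.92, adjusted p = 0.0484, edgeR), as was ADAMTS2 in senescent against quiescent RNA (-0.41, adjusted p = 0.0237), and ADAMTS6 under thapsigargin was not (0.98, adjusted p = 0.0586). Over all genes, fitting only the groups compared called 853 in place of 2068 genes in quiescent RNA, 1509 in place of 3255 in thapsigargin RNA, 6021 in place of 4000 in etoposide footprints and 4134 in place of 2551 between senescent footprints. For translational efficiency it called 760 in place of 6 genes after irradiation, 28 in place of 8 after etoposide, 1054 in place of 2430 under thapsigargin and 606 in place of 0 between the senescent states. DESeq2 called 6, 32, 40, 38 and 6 genes for translational efficiency in quiescent, irradiated and etoposide cells, in senescent against quiescent cells and between the senescent states, in place of 1, 6, 8, 5 and 0. The replicate block called 0, 3, 13, 11 and 1 in the same order, and only the groups compared 11 in senescent against quiescent cells. Without cycling RNA-seq replicate 1 or 2, 707 and 888 genes were called in quiescent, 2778 and 3091 in irradiated (of 4641), 2612 and 2914 in etoposide (of 4593) and 1722 and 1592 in thapsigargin RNA. The causes were not tested. The footprint counts of 0 to 28 for ADAMTS19 outside etoposide, and of 0 to 68 for ADAMTS2, ADAMTS5, ADAMTS6, ADAMTS12 and ADAMTS19 under thapsigargin, limit their precision.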
